A study of Mus musculus with 4 samples.

Results

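Cells make cholesterol and fatty acids from the same building block, acetyl-CoA, and the 29 genes described here encode the enzymes of both routes together with the factors that set their transcription. They were chosen by gene symbol as a list of SREBP factors, cholesterol synthesis enzymes and fatty acid synthesis enzymes, and all 29 were found among the 24391 genes of the count tables. The tables come from 4 mouse lung tumour samples. In 2 samples, labelled K-Ras, the mice carried K-Ras LSL-G12D, a mutant K-Ras allele that stays silent until Cre recombinase removes a stop cassette. In the other 2 samples, labelled K-Ras Mll4-/-, the mice carried the same K-Ras allele together with floxed Mll4, the gene now called Kmt2d, whose product methylates histone H3 at enhancers. All 4 samples therefore share the K-Ras allele. The age of the mice, the strain, the way Cre was supplied and whether a sample held tumours of 1 mouse or of several are not given in the sources used here. The digested tumours were depleted of CD45-positive leukocytes before RNA extraction, and no further sort is stated, so each value is an average over tumour cells and the other cells left.

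The sterol branch starts with the condensation of acetyl-CoA units to mevalonate, goes on through the isoprenoids to squalene, and ends with the closure and trimming of the sterol rings. The fatty acid branch turns cytosolic acetyl-CoA into malonyl-CoA and palmitate, which is then elongated and desaturated. Transcription of both is driven by the SREBP proteins, which sit in the endoplasmic reticulum as precursors, held there by INSIG proteins and carried to the Golgi by SCAP when membrane sterol is low. SREBP-2, from Srebf2, is best known for the sterol enzymes, and SREBP-1, from Srebf1, for the fatty acid enzymes. In the lung, alveolar type 2 cells make large amounts of fatty acid for surfactant phospholipid, and K-Ras lung tumours are commonly traced to these cells.

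Reads assigned to genes ranged from 26683033 to 36677987 per sample, and the groups overlapped in depth. Expression is given as CPM, read counts normalised to the sample's depth and scaled by TMM, edgeR's trimmed mean of log ratios, and 3 reads correspond to between 0.0830 and 0.114 CPM. Kmt2d itself stood at 395 and 526 CPM in the K-Ras samples and at 367 and 317 CPM in the K-Ras Mll4-/- samples, a log2 fold change of -0.43 with an SE of 0.21 and an edgeR adjusted p = 0.302, so the deletion is taken from the labels. These counts cover the whole gene, and which exons the floxed allele loses is not given in the sources used here. The numbered replicates are not said to come from different mice, and p-values measure only the spread between these samples. The RNA is from bulk tissue, in which fewer cells of a type and less RNA per cell cannot be told apart. Across 16001 genes tested, 6 were called at an adjusted p under 0.05, or 0.0375%.

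None of the 28 members tested was called at an adjusted p under 0.05 by edgeR. At an unadjusted p under 0.05, 12 of the 28 were higher in K-Ras Mll4-/- tumours, or 42.9%, against 11.4% of all genes tested, and 1 was lower, or 3.57%, against 10.4%. In 15 members both K-Ras Mll4-/- samples lay above both K-Ras samples, which held for 29.9% of all genes, and in 3 members both lay below, which held for 28.5% of all genes. The remaining member, Hmgcs1, which encodes the synthase that makes HMG-CoA, was listed with 0 reads in all 4 samples. It could not be tested, and the listed 0 is not read here as absence of expression.

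The later sterol enzymes and the 7 fatty acid enzymes stood apart in these counts, while the mevalonate enzymes did not share the sterol values. Of the 17 sterol enzymes tested, 10 were higher at an unadjusted p under 0.05, against 11.4% of all genes tested. All but 1 of these 10 were in the later steps from squalene synthesis onward. The median log2 fold change was 0.65 for the 17, 0.70 from squalene synthesis onward and 0.12 for the mevalonate enzymes. Of the 7 fatty acid enzymes, 1 was higher at that threshold, and the median log2 fold change was 0.05. Further lists of fatty acid genes had medians of 0.32 (elongation and desaturation), 0.61 (supply and activation), -0.05 (glycerolipid synthesis) and 0.07 (oxidation). Over all genes tested the median was -0.01. With offsets for GC content and length the sterol and fatty acid medians were 0.61 and 0.17. The difference between the branches was not tested, because the members were chosen with results of these data known.

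**Figure D1:**
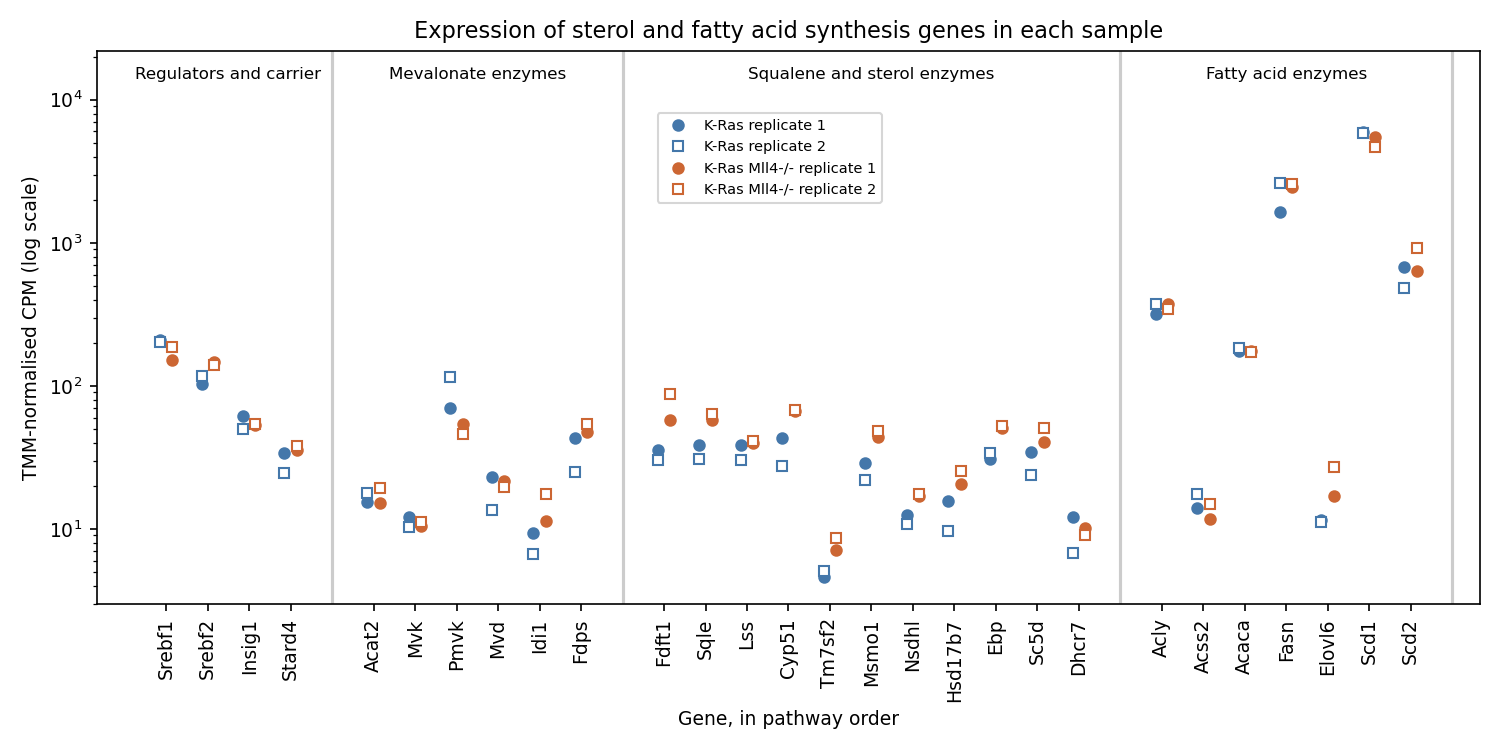
TMM-normalised CPM (log scale) of the 28 member genes with reads, in pathway order, with 1 point per sample. The K-Ras Mll4-/- points lie above the K-Ras points for 10 of the 11 squalene and sterol enzymes, while the points of most fatty acid enzymes overlap.

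The transcription factors of the pathway had log2 fold changes of opposite sign, neither of them called. Srebf2, which encodes SREBP-2, stood at 103 and 118 CPM in the K-Ras samples and at 148 and 140 CPM in the K-Ras Mll4-/- samples. The groups did not overlap, and the log2 fold change was 0.38 (SE 0.14, unadjusted p = 0.0403, edgeR adjusted p = 0.216). Srebf1, which encodes both forms of SREBP-1, went the other way in its values, at 208 and 203 CPM in K-Ras and at 151 and 187 CPM in K-Ras Mll4-/- tumours. Both K-Ras Mll4-/- samples lay below both K-Ras samples (log2 fold change -0.28, SE 0.16, edgeR adjusted p = 0.362). With offsets for GC content and length the value for Srebf1 was -0.065, or -0.071 with a replicate block added, and that for Srebf2 was 0.61. Srebf1 was also at -0.14 without K-Ras Mll4-/- replicate 1 and at -0.45 without K-Ras Mll4-/- replicate 2. The counts are totals per gene and do not separate the 1a and 1c transcripts of Srebf1.

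Taken as a ratio within each sample, which no scaling affects, reads of Srebf1 outnumbered those of Srebf2 by 2.02 and 1.72 in the K-Ras samples and by 1.02 and 1.33 in the K-Ras Mll4-/- samples. The ratios of the groups did not overlap. An exact two-sided permutation test of 2 samples against 2 gave p = 0.333, which is the smallest value it can give.

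Insig1, which encodes a sterol-sensing anchor of the SREBP precursors and is itself an SREBP target, was at 62.0 and 50.3 CPM in K-Ras and at 53.3 and 53.8 CPM in K-Ras Mll4-/- tumours. The K-Ras Mll4-/- samples lay between the K-Ras samples (log2 fold change -0.07, SE 0.15). Stard4, which encodes a soluble cholesterol carrier, was at 34.1 and 24.6 CPM in K-Ras and at 35.6 and 37.9 CPM in K-Ras Mll4-/- tumours. Its groups were separate by a small margin (log2 fold change 0.32, SE 0.20, edgeR adjusted p = 0.395), and the value was 0.09 without K-Ras replicate 2 and 0.58 without K-Ras replicate 1.

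The enzymes that build mevalonate and the isoprenoids gave mixed values. Their median log2 fold change was 0.12 over the 6 tested. Acat2, the cytosolic thiolase that joins acetyl-CoA units, was at 15.4 and 17.7 CPM in K-Ras and at 15.1 and 19.2 CPM in K-Ras Mll4-/- tumours, so the groups overlapped. Mvk, mevalonate kinase, was at 12.1 and 10.3 against 10.5 and 11.2 CPM, and its groups overlapped too. Mvd, the decarboxylase that makes isopentenyl diphosphate, was at 23.1 and 13.5 against 21.7 and 19.6 CPM, with the K-Ras samples on either side. The log2 fold changes of these 3 genes were 0.05, -0.04 and 0.18, with SEs of 0.20, 0.20 and 0.30.

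Pmvk, phosphomevalonate kinase, was the 1 member with lower values at an unadjusted p under 0.05. It stood at 69.5 and 116 CPM in the K-Ras samples and at 53.9 and 45.8 CPM in the K-Ras Mll4-/- samples. Both K-Ras Mll4-/- samples lay below both K-Ras samples, and the K-Ras sample numbered 2 was the highest by far. The log2 fold change was -0.90 (SE 0.28, unadjusted p = 0.0293, edgeR adjusted p = 0.198), and it was -0.49 without K-Ras replicate 2. DESeq2 called it lower (adjusted p = 0.0488), a call it made for 4.98% of all genes. Pmvk had the highest level per kilobase of transcript among the sterol enzymes, at 77.7 CPM per kb in K-Ras and 41.8 CPM per kb in K-Ras Mll4-/- tumours.

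The last enzymes before squalene lay higher in K-Ras Mll4-/- tumours in value. Idi1, the isomerase of isopentenyl diphosphate, was at 9.39 and 6.72 CPM in K-Ras and at 11.4 and 17.7 CPM in K-Ras Mll4-/- tumours. Its groups did not overlap (log2 fold change 0.85, SE 0.32, unadjusted p = 0.0475, edgeR adjusted p = 0.226), and the value was 0.49 without K-Ras Mll4-/- replicate 2. Fdps, farnesyl diphosphate synthase, was at 43.2 and 24.8 CPM in K-Ras and at 47.5 and 54.5 CPM in K-Ras Mll4-/- tumours. The margin between its groups was narrow, and the log2 fold change of 0.58, whose SE was 0.30 (edgeR adjusted p = 0.321), was 0.22 without K-Ras replicate 2 and 1.04 without K-Ras replicate 1.

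From squalene onward the values pointed 1 way. All 11 enzymes had a log2 fold change above 0, which 48.8% of all genes had, although that of Dhcr7 was 0.01 and took the other sign under 4 other scalings, another count filter and DESeq2. The median of the 11 was 0.70. In 10 of them both K-Ras Mll4-/- samples lay above both K-Ras samples, which held for 29.9% of all genes. At an unadjusted p under 0.05, 9 were higher, against 11.4% of all genes. K-Ras replicate 2 had the lowest value for 9 of the 11, and K-Ras Mll4-/- replicate 2 the highest for 10. Proliferation markers, at 163 and 161 CPM in sum against 305 and 331 CPM, and epithelial markers, at 817 and 1339 CPM against 2806 and 2860 CPM, were higher in the same samples, and their part in the sterol values was not tested.

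Fdft1, squalene synthase, the first enzyme committed to sterols, had the largest difference of all members. It was at 35.6 and 30.2 CPM in the K-Ras samples and at 57.4 and 88.0 CPM in the K-Ras Mll4-/- samples. The groups were well apart, and the 2 K-Ras Mll4-/- samples also differed from each other. The log2 fold change was 1.14 (SE 0.25, unadjusted p = 0.00800, edgeR adjusted p = 0.157). Sqle, squalene epoxidase, a control point of the pathway, was at 38.6 and 30.6 CPM in K-Ras and at 57.8 and 63.5 CPM in K-Ras Mll4-/- tumours. Its groups were separate (log2 fold change 0.81, SE 0.17, unadjusted p = 0.00570, edgeR adjusted p = 0.153).

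Lss, lanosterol synthase, which closes the rings, was the exception beside Dhcr7. It was at 38.8 and 30.2 CPM in K-Ras and at 39.6 and 41.5 CPM in K-Ras Mll4-/- tumours, so the groups nearly touched (log2 fold change 0.23, SE 0.17, edgeR adjusted p = 0.463). The value for Lss was 0.05 without K-Ras replicate 2, 0.42 without K-Ras replicate 1 and 0.37 with a replicate block and GC and length offsets.

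Cyp51, Msmo1, Nsdhl and Hsd17b7 act in the demethylation of lanosterol at carbons 14 and 4, and Tm7sf2 is a sterol reductase of the same stretch. All 5 passed an unadjusted p of 0.05. Cyp51, lanosterol 14-demethylase, was at 43.4 and 27.4 CPM in K-Ras and at 67.2 and 68.2 CPM in K-Ras Mll4-/- tumours. The K-Ras Mll4-/- samples were almost equal and the K-Ras samples were not (log2 fold change 0.94, SE 0.25, edgeR adjusted p = 0.177). Msmo1, the methylsterol monooxygenase, was at 29.04 and 22.1 CPM in K-Ras and at 44.0 and 48.3 CPM in K-Ras Mll4-/- tumours. Its groups did not overlap (log2 fold change 0.85, SE 0.18, edgeR adjusted p = 0.156).

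Nsdhl, the sterol dehydrogenase that acts after Msmo1, was at 12.4 and 10.8 CPM in K-Ras and at 16.9 and 17.5 CPM in K-Ras Mll4-/- tumours (log2 fold change 0.57, SE 0.18). Hsd17b7, the ketoreductase of the same complex, was at 15.6 and 9.69 CPM in K-Ras and at 20.5 and 25.3 CPM in K-Ras Mll4-/- tumours (log2 fold change 0.86, SE 0.29). Tm7sf2, a sterol reductase of low expression, was at 4.64 and 5.09 CPM in K-Ras and at 7.12 and 8.69 CPM in K-Ras Mll4-/- tumours (log2 fold change 0.70, SE 0.25). The groups of these 3 genes did not overlap, and their edgeR adjusted p values lay between 0.190 and 0.215. Without K-Ras replicate 2 the log2 fold change of Hsd17b7 was 0.54.

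Ebp, the sterol isomerase, had the smallest p of all members. It was at 30.6 and 33.8 CPM in K-Ras and at 51.1 and 52.0 CPM in K-Ras Mll4-/- tumours, with little spread in either group. The log2 fold change was 0.68 (SE 0.13, unadjusted p = 0.00401, edgeR adjusted p = 0.147). Sc5d, which makes the double bond in the second ring, was at 34.4 and 23.7 CPM in K-Ras and at 40.4 and 51.1 CPM in K-Ras Mll4-/- tumours (log2 fold change 0.65, SE 0.24, unadjusted p = 0.0480), and its value was 0.40 without K-Ras replicate 2. Dhcr7, the reductase that completes cholesterol in 1 arm of the pathway, was at 12.1 and 6.83 CPM in K-Ras and at 10.1 and 8.998 CPM in K-Ras Mll4-/- tumours. The K-Ras Mll4-/- samples of Dhcr7 lay between the K-Ras samples, and with an SE of 0.34 neither direction can be told.

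DESeq2 called 5 of the sterol enzymes higher, Fdft1, Sqle, Cyp51, Msmo1 and Ebp, with adjusted p values of 0.00589, 0.0173, 0.0314, 0.0197 and 0.0199. It called 5.02% of all genes higher. The edgeR likelihood ratio test called the same 5, and limma-voom called 0 members and 0 genes in all, with 12 members higher at an unadjusted p under 0.05. With 1 sample left out, the log2 fold changes of these 5 genes ranged from 0.61 to 1.42. Their direction was fixed beforehand, because their groups did not overlap. Counts of members passing a threshold with 1 sample left out appear only in the closing section. No conclusion is drawn from them, because 1 group then holds only 1 sample.

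**Figure D2:**
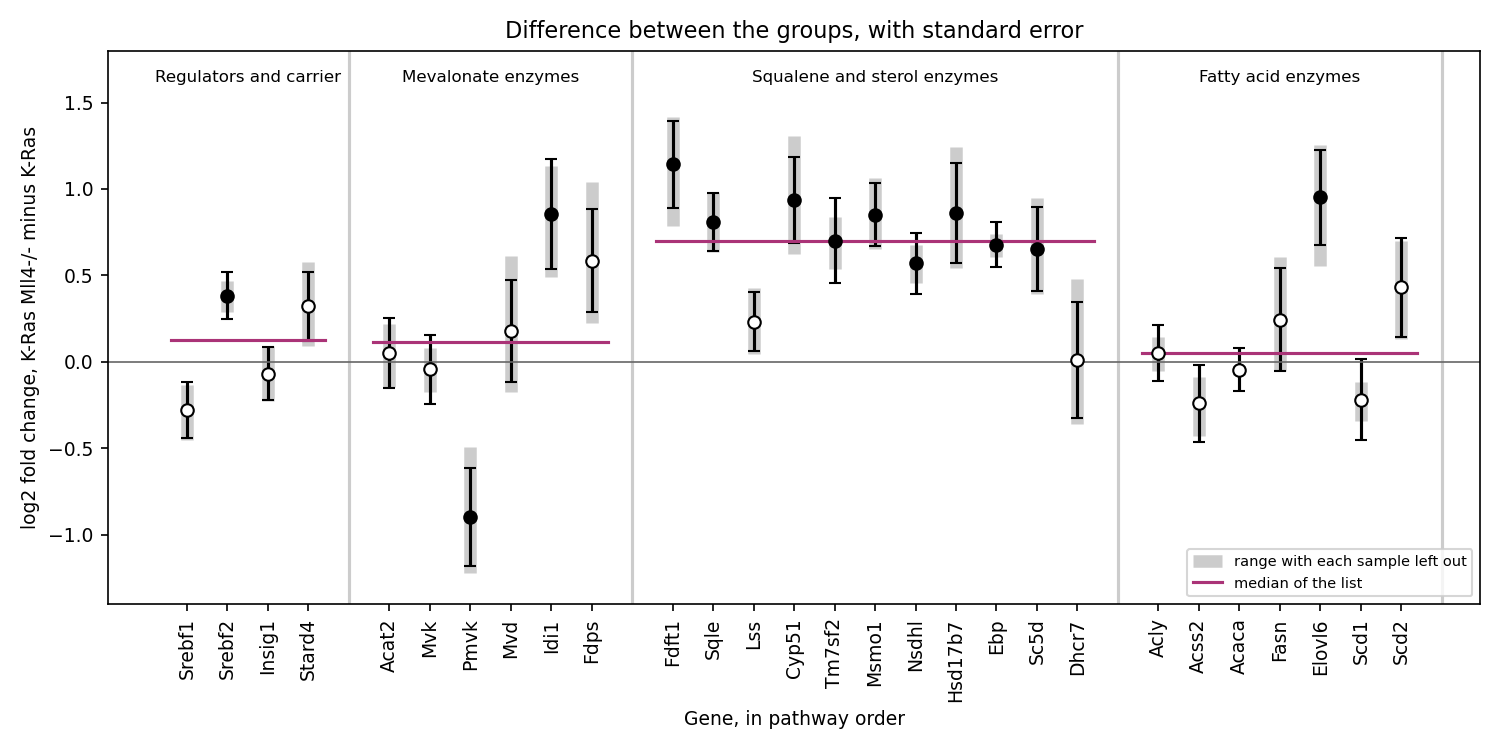
Log2 fold change of each member, K-Ras Mll4-/- minus K-Ras, with its standard error (black bars) and the range with each sample left out in turn (grey). Filled points have an unadjusted edgeR p under 0.05 and pink lines are list medians, at 0.70 for the squalene and sterol enzymes and 0.05 for the fatty acid enzymes.

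Promoter sequences are shown for sterol genes with higher values in K-Ras Mll4-/- tumours, for Hmgcs1 and for fatty acid genes beside them. RefSeq (GRCm38.p6) start sites were matched by symbol for 23 of the 29 members, and the 250 bases before each start were searched on both strands. The files' own build is mm9, so these coordinates are RefSeq's and not those of the counted gene models. Msmo1 and Ebp have the smallest p values among the sterol enzymes with a matched promoter and Cyp51 is another that DESeq2 called. Hmgcs1 is the 1 member with a match to the sterol regulatory element as spelled here. Fasn and Elovl6 represent the fatty acid branch. Capitals mark matches to the CCAAT box (CCAAT, or ATTGG on the other strand) and to the sterol regulatory element (TCACNCCAC).
Msmo1 (chr8:64733579-64733828, minus strand): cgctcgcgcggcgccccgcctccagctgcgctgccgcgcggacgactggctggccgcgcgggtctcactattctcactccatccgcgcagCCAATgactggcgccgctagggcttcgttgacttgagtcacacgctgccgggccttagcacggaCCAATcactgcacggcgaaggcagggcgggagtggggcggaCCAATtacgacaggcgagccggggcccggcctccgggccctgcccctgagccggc
Cyp51 (chr5:4104698-4104947, minus strand): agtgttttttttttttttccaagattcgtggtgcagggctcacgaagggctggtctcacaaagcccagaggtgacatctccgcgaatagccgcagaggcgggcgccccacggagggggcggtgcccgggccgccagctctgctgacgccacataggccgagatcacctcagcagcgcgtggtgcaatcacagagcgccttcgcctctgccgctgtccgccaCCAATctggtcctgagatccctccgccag
Ebp (chrX:8193513-8193762, minus strand): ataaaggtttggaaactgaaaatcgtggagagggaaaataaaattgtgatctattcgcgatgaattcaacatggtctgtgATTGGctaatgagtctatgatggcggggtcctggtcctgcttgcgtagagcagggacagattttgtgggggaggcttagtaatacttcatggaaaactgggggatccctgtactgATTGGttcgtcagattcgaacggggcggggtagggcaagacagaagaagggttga
Hmgcs1 (chr13:119690101-119690350, plus strand): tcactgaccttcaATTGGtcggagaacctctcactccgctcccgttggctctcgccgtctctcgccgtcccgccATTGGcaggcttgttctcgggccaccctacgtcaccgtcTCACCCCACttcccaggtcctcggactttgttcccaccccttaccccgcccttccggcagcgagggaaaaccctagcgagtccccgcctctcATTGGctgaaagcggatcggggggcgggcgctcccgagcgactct
Fasn (chr11:120824548-120824797, minus strand): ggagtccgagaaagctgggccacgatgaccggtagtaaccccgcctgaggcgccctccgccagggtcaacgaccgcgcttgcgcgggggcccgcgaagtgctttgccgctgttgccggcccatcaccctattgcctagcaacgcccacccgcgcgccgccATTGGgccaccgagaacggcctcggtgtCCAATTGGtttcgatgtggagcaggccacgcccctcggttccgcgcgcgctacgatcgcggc
Elovl6 (chr3:129532136-129532385, plus strand): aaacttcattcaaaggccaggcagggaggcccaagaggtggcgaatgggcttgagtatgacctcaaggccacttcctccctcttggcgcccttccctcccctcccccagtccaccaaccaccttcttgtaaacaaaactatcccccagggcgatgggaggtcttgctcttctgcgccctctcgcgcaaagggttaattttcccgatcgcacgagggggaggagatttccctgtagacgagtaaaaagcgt

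Msmo1 has 3 CCAAT boxes, at 160, 96 and 55 bases before the start, Ebp has 2, at 170 and 55, and Cyp51 has 1, at 29. Fasn has 3, at 90, 62 and 59, of which the last 2 overlap on opposite strands, and Elovl6 has none. Hmgcs1 has 3 CCAAT boxes and 1 sterol regulatory element, 137 bases before the start. A CCAAT box was present before at least 1 start of 14 of the 15 sterol enzymes with a matched promoter, 2 of the 5 fatty acid enzymes and 3 of the 3 regulators, against 39.5% of the 11917 tested genes with a promoter and 33.8% of all 32851 promoters. The GC box (GGGCGG) was present for 14 of 15 sterol enzymes and 2 of 5 fatty acid enzymes, against 59.4% of tested genes and 32.7% of all promoters. The E-box (CACGTG) was present for 3 of 15 sterol enzymes and 0 of 5 fatty acid enzymes, against 9.17% of tested genes and 6.02% of all promoters. The sterol regulatory element was present in 1.27% of tested genes and 1.05% of all promoters, and its natural sites vary more than this spelling allows. These matches describe the letters only.

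The fatty acid branch was expressed far above the sterol branch per length. The median level was 78.1 CPM per kb of transcript for the fatty acid enzymes and 7.39 CPM per kb for the sterol enzymes in K-Ras tumours, and 80.8 and 9.55 CPM per kb in K-Ras Mll4-/- tumours. The 7 fatty acid genes together took 0.927% and 0.939% of all gene reads in the K-Ras samples and 0.902% and 0.855% in the K-Ras Mll4-/- samples. The 18 sterol genes, to which Hmgcs1 adds 0 reads, together took 0.0492% and 0.0414% in the K-Ras samples and 0.0563% and 0.0628% in the K-Ras Mll4-/- samples. As shares of reads, both sums separated the groups, in opposite directions. After TMM scaling the fatty acid sums overlapped, at 8820 and 9531 CPM against 9168 and 8728 CPM, and the sterol sums did not, at 468 and 420 CPM against 572 and 641 CPM.

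Scd1, a stearoyl-CoA desaturase that makes oleate and palmitoleate, dominated the fatty acid sum. It was at 5979 and 5838 CPM in K-Ras and at 5489 and 4656 CPM in K-Ras Mll4-/- tumours, and its mean level was at percentile 99.97 of the genes tested. Both K-Ras Mll4-/- samples lay below both K-Ras samples (log2 fold change -0.22, SE 0.23, edgeR adjusted p = 0.611), and the value was -0.34 without K-Ras Mll4-/- replicate 1 and -0.12 without K-Ras Mll4-/- replicate 2. Scd2, its paralog, which is known mainly from brain and from developing tissue, was at 676 and 479 CPM in K-Ras and at 638 and 920 CPM in K-Ras Mll4-/- tumours. The groups of Scd2 overlapped (log2 fold change 0.43, SE 0.29, edgeR adjusted p = 0.426). The value for Scd2 was 0.70 without K-Ras replicate 1, 0.19 without K-Ras replicate 2, 0.67 without K-Ras Mll4-/- replicate 1 and 0.13 without K-Ras Mll4-/- replicate 2. Reads of Scd1 outnumbered those of Scd2 by 8.84 and 12.2 in the K-Ras samples and by 8.60 and 5.06 in the K-Ras Mll4-/- samples. These ratios did not overlap, narrowly. The exact two-sided permutation p was 0.333, the smallest possible here, which any 2 separate groups of 2 would give. The other ratio tested, reads of Fasn over those of Scd1, overlapped, at 0.275 and 0.45 against 0.449 and 0.557 (exact two-sided permutation p = 0.667).

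Fasn, fatty acid synthase, was at 1643 and 2629 CPM in K-Ras and at 2465 and 2593 CPM in K-Ras Mll4-/- tumours. The K-Ras samples lay on either side of the K-Ras Mll4-/- samples, so the spread within K-Ras exceeded the difference (log2 fold change 0.24, SE 0.30, edgeR adjusted p = 0.659). The value for Fasn was 0.55 with GC and length offsets and 0.57 with a replicate block added. It ranged from -0.056 to 0.61 with 1 sample left out. Acly, ATP citrate lyase, which supplies cytosolic acetyl-CoA, was at 320 and 371 CPM in K-Ras and at 371 and 344 CPM in K-Ras Mll4-/- tumours. Its groups overlapped, and the log2 fold change of 0.05 had an SE of 0.16. Acaca, acetyl-CoA carboxylase 1, was at 176 and 185 CPM in K-Ras and at 176 and 174 CPM in K-Ras Mll4-/- tumours (log2 fold change -0.04, SE 0.13). Its 4 values lay close together. Acss2, which makes acetyl-CoA from acetate, was at 14.0 and 17.5 CPM in K-Ras and at 11.8 and 14.8 CPM in K-Ras Mll4-/- tumours, and the groups overlapped (log2 fold change -0.24, SE 0.22). Its value was -0.15 with GC and length offsets, or -0.16 with a replicate block added. With 1 sample left out it was -0.39 and -0.09 (K-Ras replicates 1 and 2) and -0.09 and -0.43 (K-Ras Mll4-/- replicates 1 and 2).

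Elovl6, the elongase that turns palmitate into stearate, differed from the other fatty acid enzymes in its values. It was at 11.6 and 11.2 CPM in K-Ras and at 16.9 and 27.2 CPM in K-Ras Mll4-/- tumours. The groups did not overlap, the K-Ras samples were nearly equal and the K-Ras Mll4-/- samples were not. The log2 fold change was 0.95 (SE 0.28, unadjusted p = 0.0213, edgeR adjusted p = 0.185; DESeq2 adjusted p = 0.0604), and it was 0.55 without K-Ras Mll4-/- replicate 2. Elovl6 had the lowest level per kilobase of the 7, at 1.91 CPM per kb in K-Ras tumours against 1223 for Scd1.

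Some members share sequence with other genes, which bears on counts that set aside reads with more than 1 alignment or in more than 1 gene. Of the 50-base windows of the longest GENCODE M21 transcript, 86.4% of those of Fdps, 52.6% of Acaca, 45.9% of Acat2, 30.7% of Fdft1 and 30.5% of Idi1 also occur in a transcript of another gene. What this did to their counts was not measured, because the annotation used for counting is not given in the sources used here. For Acat2 the other gene is its paralog Acat3, which was at 0.807 to 1.54 CPM. For Fdft1 it is mainly the neighbour Ctsb, which was at 722 and 364 CPM in K-Ras and at 632 and 571 CPM in K-Ras Mll4-/- tumours. The groups of Ctsb overlapped (log2 fold change 0.15, SE 0.37). For Srebf2, Stard4, Mvk, Pmvk, Mvd, Sqle, Tm7sf2, Msmo1, Nsdhl, Hsd17b7, Ebp, Dhcr7, Acly and Fasn no window was shared. Exons of some members also overlap those of another gene at the same locus in GENCODE M21, on either strand. Among them, Ctsb overlaps 18.3% of the exonic bases of Fdft1, Gm43738 26.7% of those of Fdps and Vps51 12.1% of those of Tm7sf2.

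The other genes of these pathways came from 8 further lists. Of 59 such genes, 58 were tested and Elovl3 was listed with 0 reads. None was called by edgeR. At an unadjusted p under 0.05, 14 were higher and 2 lower in K-Ras Mll4-/- tumours (24.1% and 3.45%, against 11.4% and 10.4% of all genes tested), and the median log2 fold change was 0.07.

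Ggps1, which diverts isoprenoids to geranylgeranyl diphosphate, was at 40.9 and 45.2 CPM in K-Ras and at 42.9 and 45.1 CPM in K-Ras Mll4-/- tumours, with the groups overlapping.

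Of the 4 genes of SREBP processing, none passed an unadjusted p of 0.05. Scap was at 90.4 and 104 CPM in K-Ras and at 101 CPM in each K-Ras Mll4-/- sample. Mbtps1, the site-1 protease, had a log2 fold change under 0.01 in size. Insig2 had the highest of the list, 0.36 (SE 0.17, edgeR adjusted p = 0.289), at 22.1 and 26.9 CPM against 29.6 and 33.3 CPM.

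Of the 8 genes of cholesterol uptake and transport, 1 was higher and 1 lower at an unadjusted p under 0.05. Npc2, a lysosomal cholesterol carrier, was at 937 and 1142 CPM against 1594 and 2054 CPM (log2 fold change 0.81, SE 0.24, edgeR adjusted p = 0.185). Scarb1, the HDL receptor, was at 321 and 249 CPM against 177 and 139 CPM (log2 fold change -0.85, SE 0.21, edgeR adjusted p = 0.168).

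Of the 8 genes of cholesterol efflux and of the sterol-sensing LXR receptors, none passed an unadjusted p of 0.05, and the median log2 fold change was -0.17. Mylip, a ubiquitin ligase induced by LXR, was lowest at -0.88 (SE 0.35, edgeR adjusted p = 0.244), with 129 and 64.8 CPM against 51.0 and 54.1 CPM. Abcg1, a sterol exporter, was highest at 0.15, with 287 and 138 CPM against 318 and 153 CPM.

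Genes that lengthen, activate or store fatty acids spread widely. Of the 8 tested genes of elongation and desaturation, 4 were higher at an unadjusted p under 0.05 and 0 lower. Elovl7 was at 11.1 and 16.7 CPM in K-Ras and at 32.6 and 39.6 CPM in K-Ras Mll4-/- tumours (log2 fold change 1.38, SE 0.26, edgeR adjusted p = 0.147). Fads1, a desaturase of polyunsaturated chains, was at 84.5 and 89.8 CPM against 68.7 and 93.8 CPM, with the groups overlapping. Of the 9 genes of supply and activation, 4 were higher and 1 lower at that threshold. Me1, malic enzyme, a source of NADPH, was at 67.9 and 120 CPM against 157 and 212 CPM (log2 fold change 0.97, SE 0.33, edgeR adjusted p = 0.211).

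Acacb, acetyl-CoA carboxylase 2, whose malonyl-CoA restrains fatty acid oxidation, had the lowest value of all these lists. It was at 54.7 and 56.0 CPM in K-Ras and at 28.7 and 20.1 CPM in K-Ras Mll4-/- tumours (log2 fold change -1.18, SE 0.21, unadjusted p = 0.00309, edgeR adjusted p = 0.147). Its relative Acaca, given above, lay at nearly the same level in all samples. The difference between the 2 carboxylases was not tested.

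Of the 8 genes of glycerolipid synthesis, 3 were higher and 0 lower at an unadjusted p under 0.05. Pparg, the adipogenic nuclear receptor, was at 36.0 and 13.7 CPM in K-Ras and at 62.1 and 72.2 CPM in K-Ras Mll4-/- tumours (log2 fold change 1.43, SE 0.48, edgeR adjusted p = 0.209). Pcyt1a, the control enzyme of phosphatidylcholine synthesis, was lowest at -0.38 (SE 0.19). Of the 10 genes of fatty acid oxidation, 1 was higher and 0 lower. Pdk4 was highest at 0.65 (SE 0.55).

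**Figure D3:**
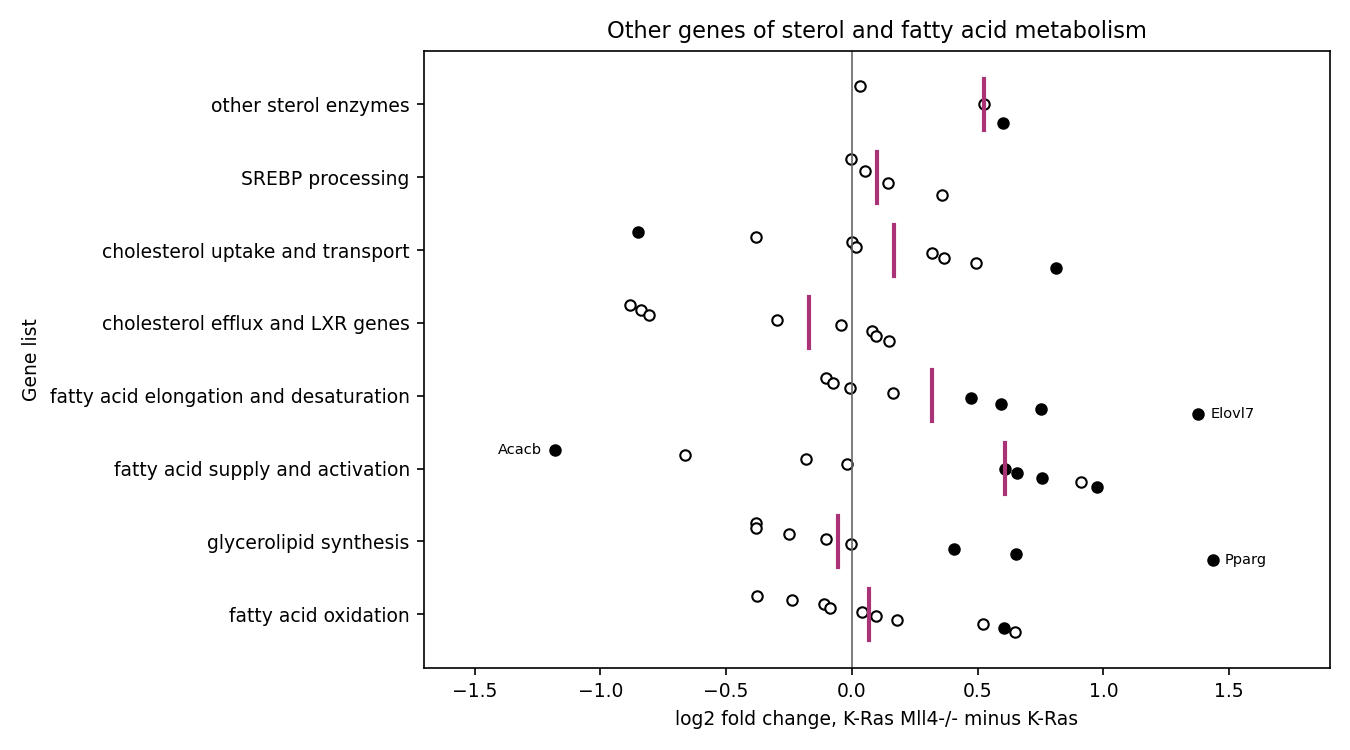
Log2 fold change, K-Ras Mll4-/- minus K-Ras, of the 58 tested genes in 8 further lists, with 1 point per gene. Filled points have an unadjusted edgeR p under 0.05, pink bars are list medians, and genes at the end of a list with a log2 fold change over 1 in size are named, from -1.18 for Acacb to 1.43 for Pparg.

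Cell type and growth markers moved with the comparison. Of the 5 epithelial markers, 4 were higher at an unadjusted p under 0.05, and their summed level was 817 and 1339 CPM in the K-Ras samples against 2806 and 2860 CPM in the K-Ras Mll4-/- samples. Of the 8 proliferation markers, 8 were higher at that threshold, with sums of 163 and 161 CPM against 305 and 331 CPM. Of the 7 endothelial markers, 6 were lower, with sums of 5016 and 5065 CPM against 3471 and 2713 CPM. The 5 ciliated markers were all lower, with sums of 91.4 and 560 CPM against 50.6 and 54.9 CPM. Of the 7 fibroblast markers, 2 were lower, with sums of 2468 and 1124 CPM against 838 and 853 CPM, and of the 4 club cell markers 1 was lower, with sums of 1105 and 4595 CPM against 929 and 694 CPM. Of the 4 mesothelial markers 2 were tested, with sums of 14.4 and 17.5 CPM against 121 and 222 CPM, nearly all of it Msln, while the other tested marker, Lrrn4, had a log2 fold change below 0 (both named after their values were seen). The part of these other cell types was not tested either.

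The summed markers of alveolar type 2 cells overlapped between the groups, and single markers differed in direction. The 9 alveolar type 2 markers summed to 18728 and 30681 CPM in K-Ras and to 25074 and 26404 CPM in K-Ras Mll4-/- tumours, and 0 of them passed an unadjusted p of 0.05. All 9 were present in every sample. The groups overlapped for 5 of the 9, both K-Ras Mll4-/- samples lay above both K-Ras samples for 1, Sftpb (2871 and 5629 against 7045 and 10342 CPM), and below them for 3, Sftpa1, Napsa and Etv5, named after their values were seen. Adipocyte markers were near 0, at 2.52 to 12.1 CPM in sum, with Lep at 0 or 1 read in each sample and Adipoq at 0 in K-Ras replicate 2. The 7 alveolar type 1 markers, of which 2 were higher and 1 lower at that threshold, summed to between 1656 and 2316 CPM, the 7 macrophage markers to between 3157 and 5268 CPM and the 5 leukocyte markers to between 192 and 369 CPM, each with overlapping sums. Of the leukocyte markers 1 was lower at that threshold, Itgam, at 63.3 and 26.9 CPM against 17.3 and 13.4 CPM (named after its values were seen), and of the macrophage markers 0 passed it. Leukocyte transcripts were thus present in all 4 samples after the CD45 depletion. Most of the macrophage sum was Lyz2, at 4173 and 4211 CPM against 4303 and 2822 CPM (named after its values were seen). Averaged as log2 CPM, the 7 macrophage markers stood at 7.75 and 5.74 against 7.10 and 5.81, so replicate 1 was higher in each group. The part of this difference between replicates in the values of the members was not tested.

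**Figure D4:**
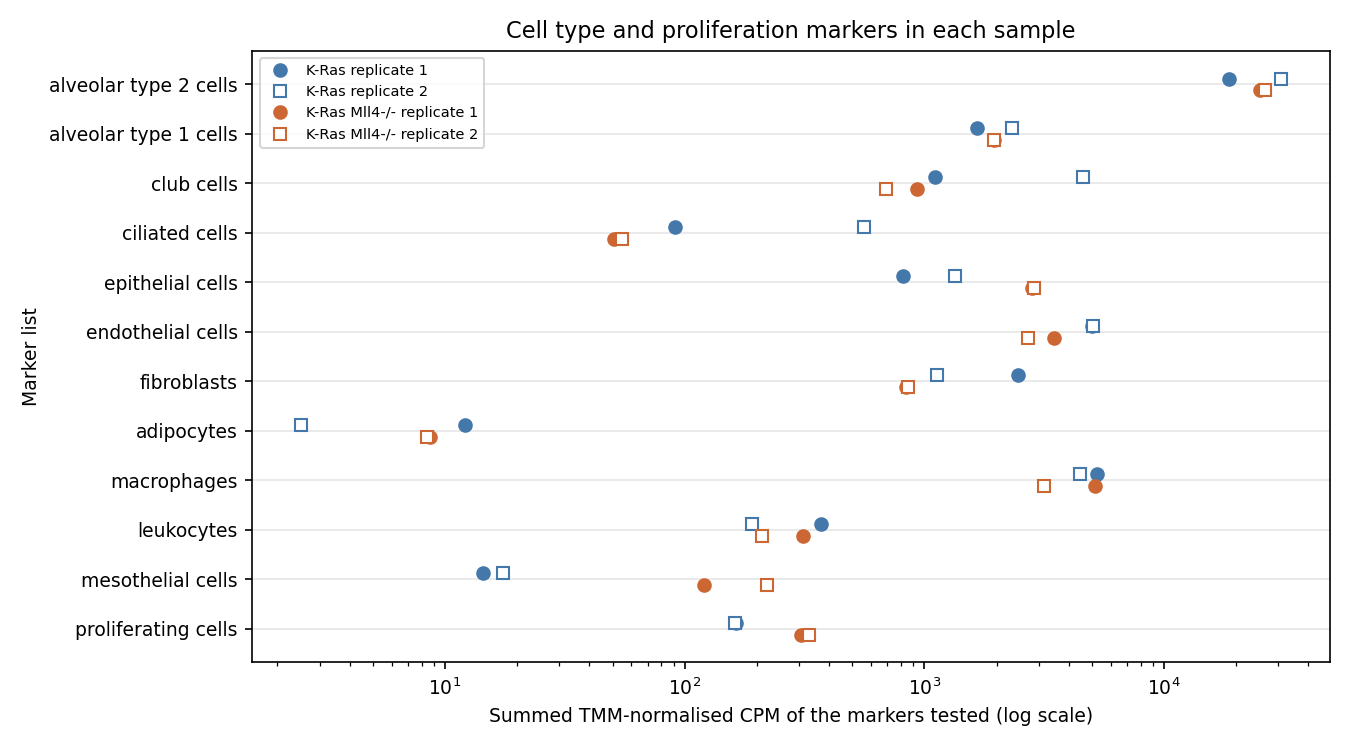
Summed TMM-normalised CPM (log scale) of the tested markers of each list, with 1 point per sample. The K-Ras Mll4-/- samples lie above both K-Ras samples for the epithelial, mesothelial and proliferation lists and below them for the club, ciliated, endothelial and fibroblast lists, while the alveolar type 2 sums overlap.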

How the data were processed

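RNA from 4 lung tumour samples was sequenced, 2 per group, and the titles gave each group and replicate number. The authors deposited unnormalised read counts for each gene symbol, and the submitters' processing notes name CASAVA 1.4, STAR, HTSeq and the mm9 build. The gene annotation and strand setting are not given in the sources used here. The deposited counts end with separate tallies of multiply aligned reads (31.5% to 36.7% of all tallied reads) and of reads outside genes (24.1% to 26.7%), which were left out. All 24391 genes were tested with edgeR 4.0.16 in R 4.3.3 where they passed the filter, using the default count filter, TMM scaling, the robust quasi-likelihood test and Benjamini-Hochberg adjustment, with 0.05 as the threshold of a call. The standard error is the log2 fold change divided by the square root of F. Members and lists were chosen with earlier results of these data known. All members are named, and of the other lists Scap, Insig2 and the genes at both ends of each list. Some genes of those lists are not reported here. Exon and transcript overlaps and lengths come from GENCODE M21 (GRCm38), and promoters from RefSeq. Alternatives used DESeq2 1.42.0, limma 3.58.1 and mgcv 1.9.3. The fits were tested on simulated data. Floors cover counting error only, and no molecular identifiers are stated.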

Additional observations from a re-analysis of the deposited data

How the results depend on the processing

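The number of genes called depended on the method, against 6 in the main analysis (6 higher, 0 lower). It was 44 (42 higher, 2 lower) without a count filter, 1601 (804 and 797) with DESeq2, 1503 (776 and 727) with the likelihood ratio test, and 0 (0 higher) with limma-voom. DESeq2 called 6 members and 9 other pathway genes, and the likelihood ratio test 5 and 7. The cause was not tested.

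Replicate numbers were shared between groups, but with 2 pairs (correlation of deviations 0.213) they were not taken as pairs. The replicate block called 217 genes (199 higher, 18 lower), 0 members and 1 other pathway gene. With GC and length offsets, added after seeing the data, the block called 424 (356 and 68), 0 members and 3 other pathway genes.

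Leaving out 1 sample, where a lone sample is assumed to vary like the other group, gave 0 to 524 genes called (0 to 107 higher, 0 to 417 lower), with 524 without K-Ras replicate 1. Members called ranged from 0 to 1, other pathway genes from 0 to 1, members higher at an unadjusted p under 0.05 from 3 to 13 and lower from 0 to 1. The sterol median ranged from 0.46 to 0.69, the fatty acid median from -0.056 to 0.14, and fatty acid genes above 0 from 2 to 4.

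The sterol median kept its sign under every alternative run. With 1 sample left out that was fixed beforehand, because the groups of 12 of the 17 sterol enzymes tested did not overlap and were higher in K-Ras Mll4-/- tumours. The fatty acid median was -0.0073 under upper quartile scaling, -0.056 without K-Ras replicate 1, -0.0068 without K-Ras Mll4-/- replicate 1, and 0.17 with GC and length offsets, with or without the block. Dhcr7 was -0.010 under TMMwsp, -0.0014 under RLE, -0.052 under upper quartile and -0.054 under total count scaling, -0.0053 with a CPM filter, -0.0013 with DESeq2, -0.36 without K-Ras replicate 2 and -0.075 without K-Ras Mll4-/- replicate 1. Under upper quartile scaling Acat2 was -0.0031 and Acly -0.0073. Without K-Ras replicate 1, Acat2 was -0.044, Acly -0.054, Fasn -0.056, Insig1 0.091 and Mvk 0.079. Without K-Ras replicate 2, Mvd was -0.17. Without K-Ras Mll4-/- replicate 1, Mvk was 0.0026 and Acly -0.0068, and without K-Ras Mll4-/- replicate 2 Acat2 was -0.15. With GC and length offsets Mvk was 0.087 and Acaca 0.090, and with the block added 0.095 and 0.092. With each sample left out in turn, Insig1 ranged from -0.23 to 0.091, Acat2 from -0.15 to 0.22, Mvd from -0.17 to 0.61, Dhcr7 from -0.36 to 0.48 and Fasn from -0.056 to 0.61. None of these reversed genes passed the test in the main analysis.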
